A study of Mus musculus with 4 samples.

Results

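The PBS library is the bulk RNA-seq profile of prostate cells in culture from mice, labelled with the vehicle PBS alone. It is 1 of the 4 libraries of a series on a manganese porphyrin (BuOE) and pelvic radiation, chosen by its label, and it is described here by itself, with no contrast to the libraries labelled BuOE, PBS and radiation, and BuOE and radiation. Per the labels, the source was the prostate of male C57BL/6 mice of 8 to 10 weeks (the genotype field reads CB57BL/6). The organ was minced, digested with type I collagenase and grown in DMEM, a standard culture medium, with 10% serum. PBS is phosphate-buffered saline. The labels do not state whether animals or cultures received it, how many animals were used, or how long the cells were grown. They name the cells fibroblasts, and no sorting step is given. Markers of fibroblasts were present, but so were those of epithelium. Per length, the luminal epithelial markers summed to a higher level than the fibroblast markers, and the basal ones to a lower level. The values are therefore those of the culture as a whole (the markers are described last).

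Fibroblasts are the cells that build and remodel connective tissue. They secrete collagens, fibronectin and proteoglycans together with the enzymes that cross-link and degrade them, and pull on this matrix through integrins coupled to actin filaments. In the prostate they surround glands made of a secretory luminal and a basal epithelial layer, along with smooth muscle, vessels and nerves. Cells placed on plastic with serum receive growth factors and stiff support, both known to favour actin stress fibres and division.

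The library held 29744664 counts. Each count is a read assigned to a gene. CPM is a gene's count scaled to a library of 1000000 counts, a measure of its share of the reads. TPM is the count divided by the length of the gene's exons and scaled to the same total. Levels of different genes are thus compared in TPM, whereas orders and sums in CPM compare shares of the reads. Ranges in brackets are 95% Poisson intervals, which cover counting error and not differences between animals or cultures. There is no replicate, so no value has an SD and no test was made. Of 21922 protein-coding genes, 12999 (59.3%) reached 1 CPM, or 30 reads, the level taken as detected, 2344 reached 100 CPM and 5389 had no read. Detected protein-coding genes had a median of 24.2 TPM, all protein-coding genes a median of 4.88 TPM, and 1906 of them (8.69%) reached 100 TPM. These values are the background for the gene lists that follow. The 4 Y-linked genes listed were all detected, with Ddx3y, an RNA helicase, at 43.5 TPM, and the X-inactivation RNA Xist had no read.

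Protein-coding genes took 97.6% of the counts. The 10 most abundant of them took 4.89% (4.88 to 4.90, exact binomial interval), the 100 most abundant 17.8% and the 1000 most abundant 49.2%, so that no small set of genes dominated. By reads the highest was Actb, which encodes the beta-actin of microfilaments, at 10207 CPM and 15137 TPM. It was followed in CPM by Thbs1 (6764 CPM), a secreted matricellular protein that binds cells and latent TGF-beta, and Eef1a1 (6560 CPM), which delivers tRNAs to the ribosome. Next came Clu (4354 CPM), the secreted chaperone clusterin, then Myh9 (4108 CPM), the motor of non-muscle myosin, and Flna (4093 CPM), which cross-links actin. The large scaffold gene Ahnak stood at 3303 CPM. The fibronectin gene Fn1 stood at 3141 CPM and the chaperone gene Hsp90ab1 at 2996 CPM. The list thus opened with genes of the cytoskeleton, the matrix and protein synthesis. Ccn2, a matricellular gene, was the last inside the first 100 at 852 CPM, and the lysosomal membrane gene Lamp1 the first outside at 842 CPM.

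**Figure D1:**
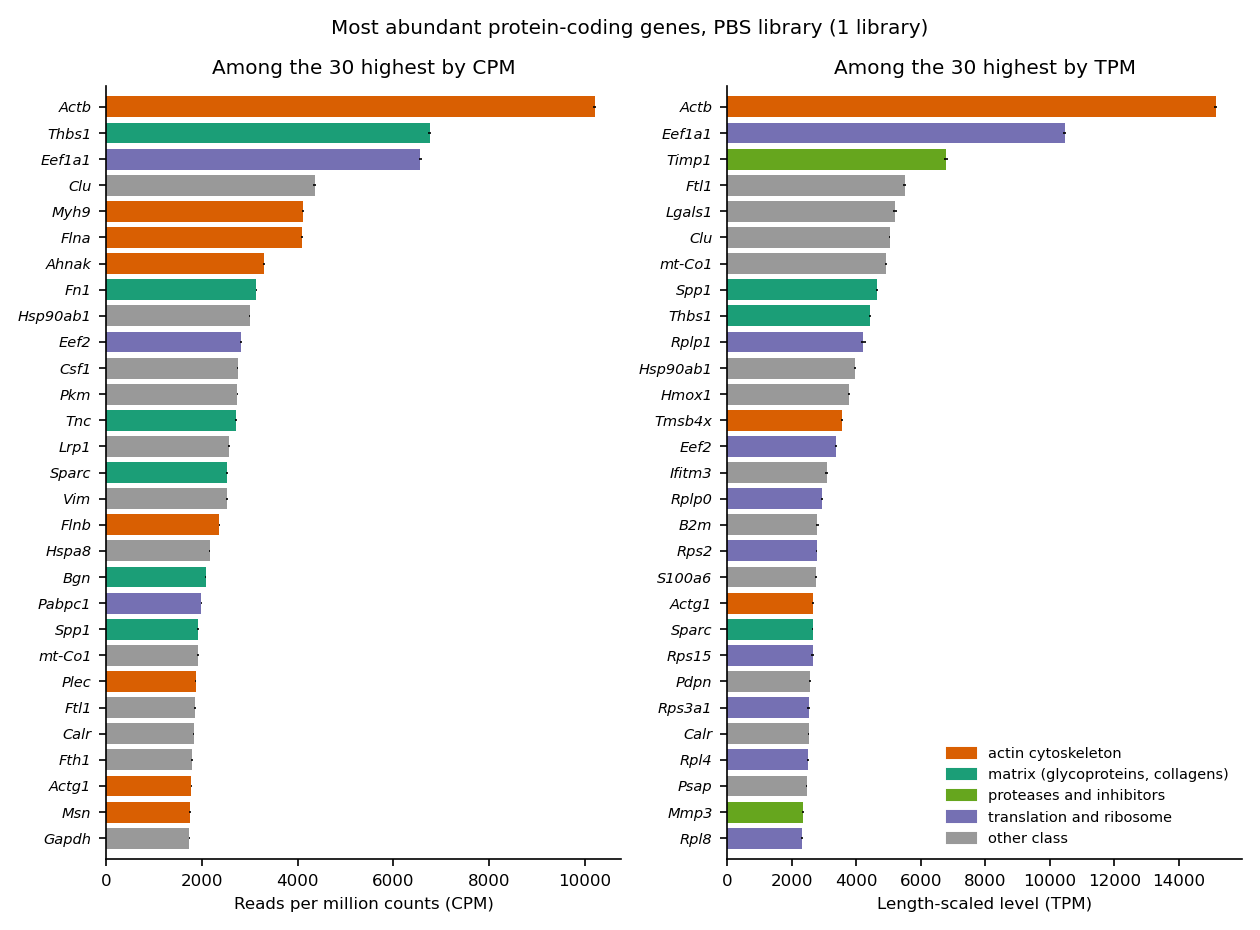
Bars give protein-coding genes among the 30 with the highest CPM (left) and the 30 with the highest TPM (right) in the single PBS library, coloured by functional class, with whiskers for the 95% Poisson interval of the counts. Actb leads both panels, at 10207 CPM and 15137 TPM. Long genes such as Flna and Ahnak appear on the left only, and short ribosomal protein genes on the right only.

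Scaling by length changed which genes led. Only 55 of the first 100 genes by CPM were also among the first 100 by TPM, and the median exon length of the leading genes was 4924 bases by CPM against 2139 bases by TPM. In TPM the order after Actb was Eef1a1 (10455), Timp1 (6769), the ferritin light chain gene Ftl1 (5504), the galectin gene Lgals1 (5195), Clu (5033), the mitochondrial gene mt-Co1 (4925) and Spp1 (4637). Timp1 encodes a secreted inhibitor of metalloproteinases and Spp1 the adhesive phosphoprotein osteopontin. Ahnak, the eighth gene by CPM, had 658 TPM. Reads of Actb, Eef1a1, Ftl1 and the ribosomal protein genes can be shared with their many processed pseudogenes, so these values are uncertain.

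The protein-coding genes were placed in 25 functional classes. The class of the actin cytoskeleton and contraction took the largest share of counts, 6.78%, with 19 of the first 100 genes by CPM and 23.6% of their reads. Matrix glycoproteins and proteoglycans took 3.57% of counts and 12 of the first 100 genes. Ribosomal proteins of the cytosol took 3.38% of counts and 4 of these genes, but 8.04% of TPM and 27 of the first 100 genes by TPM, which made them the largest class on that scale. Translation factors took 3.04%, RNA binding and splicing proteins 3.00%, adhesion and surface receptors 2.66%, and collagens with their processing enzymes 1.74%. Genes in none of the classes held 54.6% of the counts and 8 of the first 100 genes, among them Nedd4, Hdlbp, Ptgs2, Ddb1, Cltc, Kpnb1 and Gnas. Among these, Ptgs2 encodes the inducible cyclooxygenase of prostaglandin synthesis (1277 CPM and 1108 TPM) and Cltc the clathrin heavy chain.

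**Figure D2:**
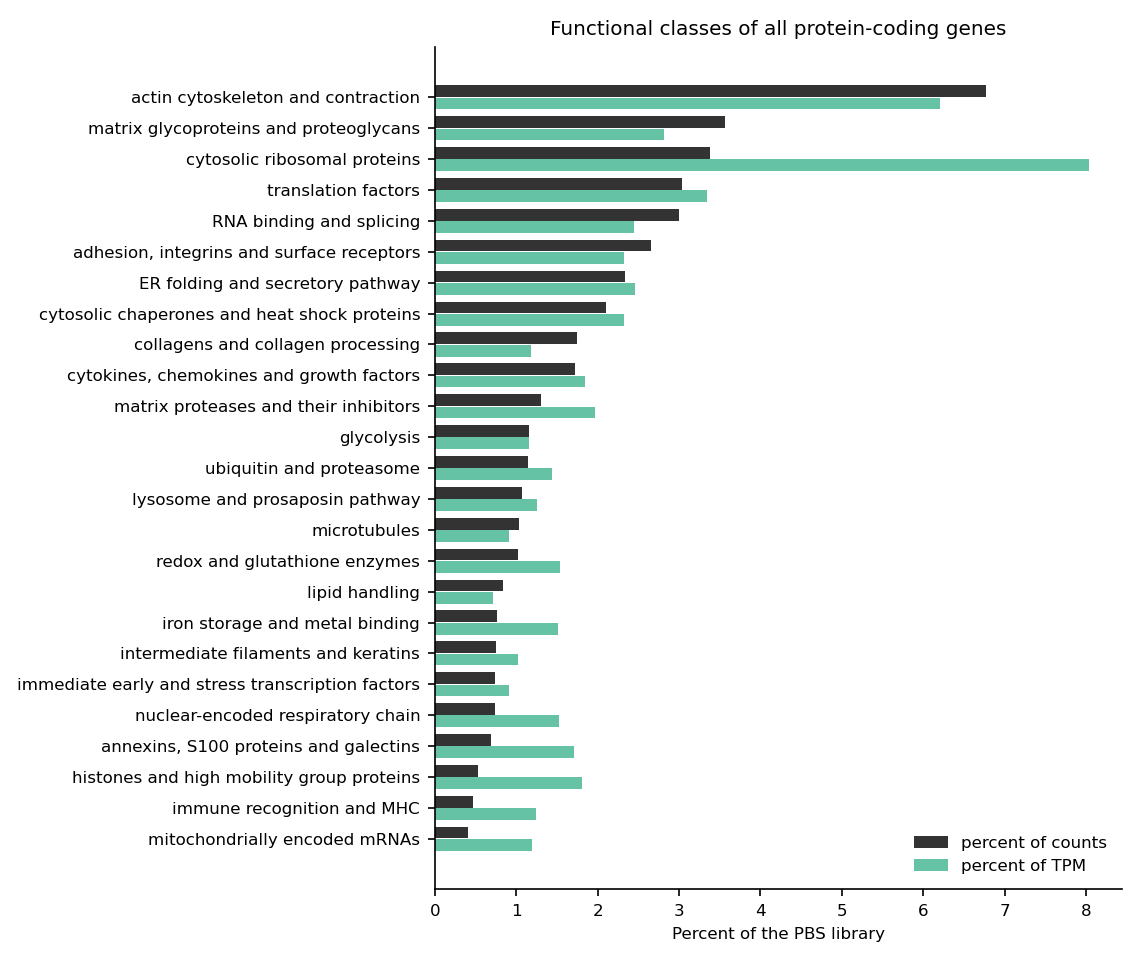
Each pair of bars gives the share of one functional class of protein-coding genes in the PBS library, as percent of all counts (dark) and percent of TPM (green). The actin cytoskeleton leads in counts at 6.78% and ribosomal proteins lead in TPM at 8.04%.

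Genes of the cytoskeleton were led by actin itself. The cytoplasmic actins Actb and Actg1 stood at 15137 and 2659 TPM, and Acta2, the smooth muscle actin that marks myofibroblasts, at 1397 TPM (1379 to 1415). Actb was thus 10.8 times as high as Acta2. Actg2, the actin of visceral smooth muscle, stood at 112 TPM, and the striated muscle actins Acta1 and Actc1 at 14.1 and 3.30 TPM. The monomer-binding peptide gene Tmsb4x reached 3564 TPM, Tagln, which stabilises actin bundles, 765 TPM, and the intermediate filament gene Vim 2109 TPM. Of the 16 myofibroblast and smooth muscle markers, 15 were detected, with a list median of 13 TPM. Markers of mature smooth muscle were spread over the list: Myl9 stood at 181 TPM, Smtn at 176 TPM and Des at 39.9 TPM, whereas its myosin gene Myh11 had 12.6 TPM, Lmod1 11.7 TPM, Cnn1 6.49 TPM, and Pln had no read.

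Many actin genes are textbook targets of serum response factor, which binds the CArG box, a run of A and T bases between CC and GG that is its own mirror in form on both strands. Of the 122 detected genes of the actin class with a RefSeq promoter window, 14 (11.5%) carried a CArG box in the 250 bases before the start, against 1.62% of all 27025 genes with a window and 1.28% of the first 100 genes by CPM that had one. The search set the form of the box, so the likeness of the boxes is not a result. The boxes of 5 members whose levels differ are shown from the RefSeq table (GRCm38.p6). The box is in capitals and the strand of the gene in brackets.
Actg1, chr11:120348551-120348610 (-): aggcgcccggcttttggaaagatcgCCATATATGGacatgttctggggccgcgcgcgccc
Cnn2, chr10:79988519-79988578 (+): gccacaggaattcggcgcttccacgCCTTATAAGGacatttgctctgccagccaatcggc
Myl6, chr10:128493025-128493084 (-): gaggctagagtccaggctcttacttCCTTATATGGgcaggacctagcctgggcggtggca
Lima1, chr15:99820162-99820221 (-): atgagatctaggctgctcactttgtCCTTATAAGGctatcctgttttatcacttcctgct
Acta1, chr8:123894814-123894873 (-): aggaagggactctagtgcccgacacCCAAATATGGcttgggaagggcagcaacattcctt
The box began 90 bases before the start in Actg1, 56 in the calponin gene Cnn2, 50 in the myosin light chain gene Myl6, 47 in the actin-bundling gene Lima1 and 73 in Acta1. These genes stood at 2659, 624, 563, 277 and 14.1 TPM in the same order, so a box in this window went with high and with low levels. They were chosen after their values were seen. Other motifs were counted in the same windows, on both strands unless stated. The GC box GGGCGG lay in 64.4% of the windows of detected protein-coding genes and in 20.4% of those below 1 CPM. TATAAA, sought on the gene's strand between 50 and 16 bases before the start, lay in 1.82% and 5.80%, and the CCAAT box in 40.1% and 37.9%. The AP-1 motif TGANTCA lay in 5.85% of the windows of detected genes and in 9.36% of those below 1 CPM. Among the classes it lay in 18.6% of 59 windows of detected matrix proteases and inhibitors. It was not particular to them, with 21.3% of 47 windows for immune recognition and MHC. The lysosome and prosaposin pathway had 16.7% of 30 windows, and cytokines, chemokines and growth factors 15.8%. The other classes with windows were lower, the highest of them being lipid handling at 15.4%. Collagens with their processing enzymes had 2.27%. A run of C followed by 4 bases that are C or T, the form of the terminal tract of translation genes, stood at the start in 23% of 61 ribosomal protein genes and 3.01% of all genes. Only a run beginning exactly at an annotated start was counted, so tracts beside it were missed and these shares may be too low. A match is a match of letters only.

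Matrix genes were among the abundant genes for secreted proteins. After Thbs1 (4425 TPM) and Spp1, the glycoproteins were led in TPM by Sparc (2656), a collagen-binding protein of remodelling tissue, the tenascin gene Tnc, Bgn (1354), a small proteoglycan, Ccn1 (1243), Ccn2 (1183) and Fn1 (1068). Of the fibrillar collagens, which form the tensile fibres, 8 of 9 were detected and 6 reached 100 TPM. Col1a1 stood at 987 TPM (979 to 996), Col5a2 at 590 TPM, Col3a1 at 505 TPM, Col1a2 at 503 TPM, Col5a1 at 297 TPM and Col5a3 at 191 TPM. The intervals of Col3a1 and Col1a2 overlapped, but with the longest transcript these genes stood at 671 and 879.5 TPM. Col11a1 had 7.78 TPM and Col11a2 0.661 TPM, while the cartilage collagen Col2a1 had 4 reads and was the member below 1 CPM. The chains of type I collagen, Col1a1 and Col1a2, had almost equal reads (1631 and 1572 CPM). Their ratio was 1.96 per exon length, but 0.936 with the length of the longest transcript, so their order depends on the gene model. Of the other genes with a TPM printed here, that length also raised TPM by more than 1.5 times for Bgn (2333), Itga6 (165), Ccnd3 (76.6), Txn2 (116), Prdx4 (168.5), Esr1 (8.55), Wt1 (16.6), Ptprc (7.78) and Nox4 (4.23), and for Col1a2 itself it gave 879.5.

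The other collagens were led by the basement membrane chains Col4a1 (719 TPM) and Col4a2 (488 TPM), followed by Col6a3 (269 TPM) of the beaded filaments and Col18a1 (178 TPM). Col17a1, the collagen that anchors epithelial cells, stood at 90.0 TPM, and 20 of the 21 members were detected. All 22 genes of collagen modification and cross-linking were detected and 14 reached 100 TPM. They were led by P4hb (1714 TPM), a subunit of the prolyl hydroxylase, Lox (1409 TPM), which cross-links collagen and elastin, and Serpinh1 (1264 TPM), the collagen chaperone. The lysyl hydroxylases Plod3, Plod2 and Plod1 lay at 180, 103 and 72.2 TPM.

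Matrix turnover genes were abundant as well. Timp1, at 6769 TPM, held 57.0% of the summed TPM of the 20 metalloproteinases and TIMPs and was 12.2 times as high as Timp2 (555 TPM). Timp3 stood at 164 TPM, whereas Timp4 was below 1 CPM. Among the proteases, the stromelysin gene Mmp3 led at 2348 TPM, ahead of the membrane-bound collagenase gene Mmp14 (624 TPM), Mmp10 (348 TPM), the gelatinase genes Mmp2 (306 TPM) and Mmp9 (215 TPM), and Mmp13 (157 TPM).

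**Figure D3:**
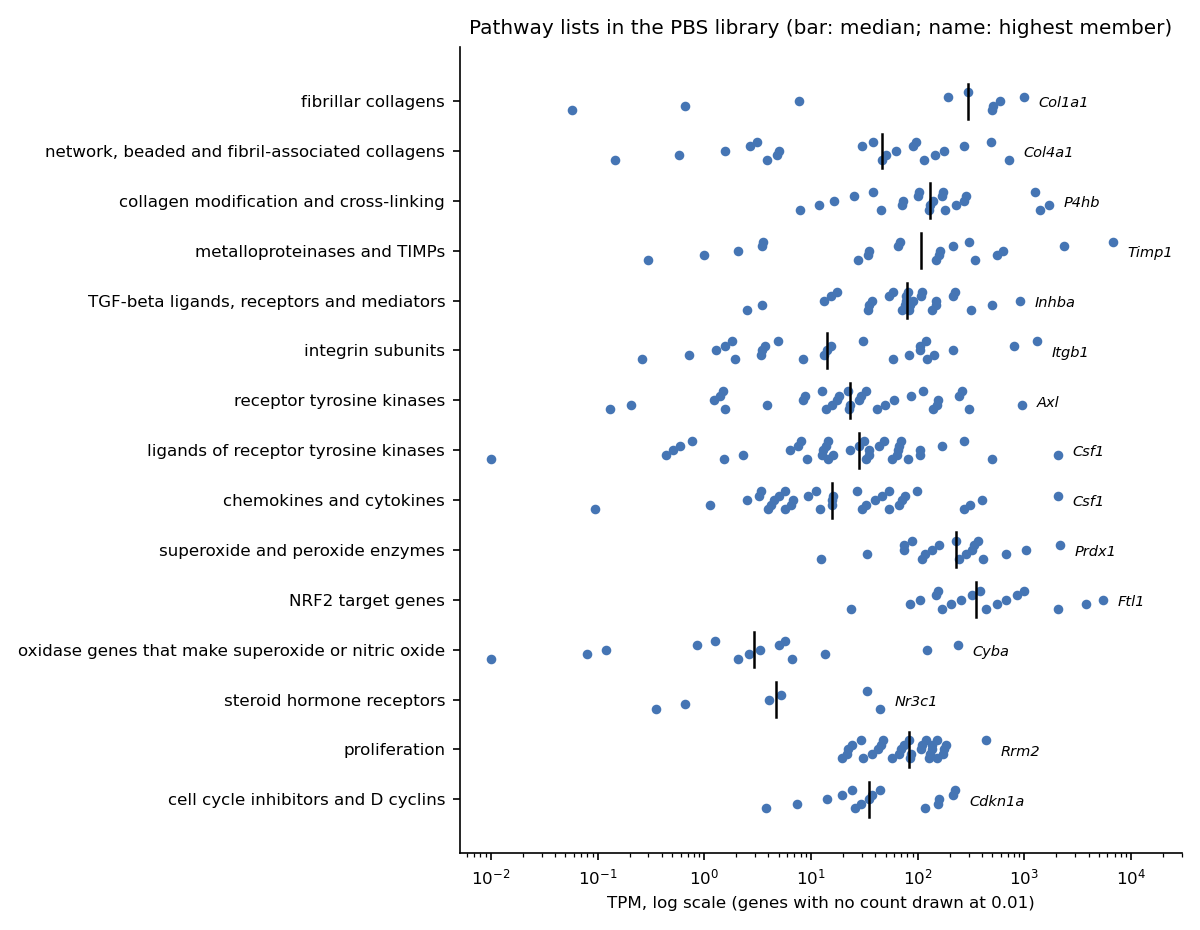
Points give the TPM of each gene of 15 lists in the PBS library on a log axis, with a bar at the list median and the name of the highest member. NRF2 target genes have the highest median (353 TPM) and the genes of superoxide or nitric oxide production the lowest (2.95 TPM).

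Of the integrins, the receptors that hold cells to matrix, 23 of 25 subunits were detected. Itgb1, the common beta chain, stood at 1316 TPM (1303 to 1329) and Itga5, its partner in the fibronectin receptor, at 803 TPM (793 to 812), followed by Itgav at 215 TPM and Itgb5 at 142 TPM. Collagen-binding alpha chains were lower, with Itga2 at 82.7 TPM, Itga11 at 4.87 TPM and Itga1 at 3.69 TPM. The epithelial pair Itga6 and Itgb4, which sits in hemidesmosomes, stood at 104 TPM each.

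TGF-beta is the main inducer of matrix synthesis in fibroblasts and is secreted in a latent form. All 28 genes of its ligands, receptors and mediators were detected, with a median of 79.4 TPM. Among the ligands, Tgfb1 stood at 224 TPM, Tgfb3 at 110 TPM and Tgfb2 at 17.4 TPM, and Inhba, the subunit of activin A, was highest at 915 TPM. The follistatin gene Fst, whose product binds activin, had 212 TPM. The receptors Tgfbr2, Tgfbr3 and Tgfbr1 had 90.4, 80.8 and 59.0 TPM, and the feedback inhibitor Smad7 150 TPM. Lrrc32, which tethers latent TGF-beta to the cell surface, was second in the list at 494 TPM, ahead of the latent binding protein gene Ltbp2 (317 TPM).

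Growth factor signalling genes were broad in range. Of 32 receptor tyrosine kinases, 30 were detected and 8 reached 100 TPM. Axl, the receptor for Gas6, led at 954 TPM, followed by the fibroblast receptors Pdgfra (300 TPM, 296 to 304) and Pdgfrb (259 TPM, 254 to 264), then Fgfr1 (242 TPM). Egfr, the receptor for EGF, stood at 153 TPM and Erbb4 at 0.130 TPM. Of 37 ligands, 32 were detected, and Csf1, the growth factor of macrophages, held 51.4% of their summed TPM at 2066 TPM. Its receptor Csf1r stood at 18.3 TPM. Vegfa, the main angiogenic factor, had 494 TPM, and Fgf2 274 TPM, while Igf1 had 9.09 TPM and Igf2 0.513 TPM. Among 34 chemokines and cytokines, of which 30 were detected, the monocyte attractant genes Ccl2 (403 TPM) and Ccl7 (307 TPM) and the fibrosis-linked cytokine gene Il11 (272 TPM) came after Csf1. Il6 had 40.1 TPM, Tnf 12.2 TPM and Il1b 3.92 TPM. The BMP antagonist gene Grem1 stood at 205 TPM, above the ligands Bmp2 (21 TPM) and Bmp4 (8.32 TPM).

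The compound of the series is a superoxide dismutase mimic, and the cells' own enzymes against superoxide and peroxide were therefore listed. All 19 were detected and 14 reached 100 TPM, with a median of 228 TPM. Prdx1, a peroxiredoxin, was highest at 2138 TPM (2119 to 2157). Of the other peroxidase genes, Gpx8 stood at 409 TPM, Prdx5 at 367 TPM, Gpx1 at 337 TPM, Prdx6 at 324 TPM, Gpx4 at 282 TPM and Prdx2 at 243 TPM. With the length of the longest transcript, Prdx6 led these genes at 459 TPM and Gpx8 came last at 310 TPM. Their order thus depends on the gene model. Prdx3 stood at 136 TPM, Gpx3 at 118 TPM, Prdx4 at 109 TPM and Gpx7 at 75.2 TPM. In the thioredoxin system, which supplies electrons to peroxiredoxins, Txn1 stood at 1026 TPM and Txnrd1 at 678 TPM, next after Prdx1 in the list, with Txn2 at 75.0 TPM and Txnrd2 at 12.3 TPM. Catalase (Cat) had 228 TPM. The superoxide dismutases lay below the list median: the cytosolic Sod1 had 157 TPM (153 to 162), the extracellular Sod3 88.4 TPM (85.0 to 92.0) and the mitochondrial Sod2 33.7 TPM (32.4 to 35), and their intervals did not overlap. Targets of NRF2, the transcription factor that oxidants activate, were all detected (18 of 18, 16 at 100 TPM or more), led by Ftl1, the haem-degrading enzyme gene Hmox1 (3776 TPM), Fth1 (2056 TPM) and Nqo1 (988 TPM). Of the genes that make superoxide or nitric oxide, 11 of 14 were detected, with the NADPH oxidase subunit Cyba at 239 TPM, Xdh at 122 TPM, Nox4 at 2.60 TPM and Nox3 with no read.

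Genes of DNA replication and mitosis mark dividing cells. All 30 proliferation genes were detected, with a median of 83.3 TPM. The ribonucleotide reductase gene Rrm2 led at 434 TPM, followed by the replication clamp gene Pcna (185 TPM), Mcm4 (175 TPM) and Mki67 (174 TPM), the marker of dividing cells. Among the cyclins of G1, Ccnd1 stood at 216 TPM, Ccnd2 at 159 TPM and Ccnd3 at 44.7 TPM. Cdkn1a, the p53-induced inhibitor, stood at 222 TPM, Trp53 at 154 TPM and Mdm2 at 117 TPM. The other inhibitors were lower, with Cdkn2c at 37.3, Cdkn1b at 34.9, Cdkn2b at 29.7 and Cdkn2d at 25.6 TPM, then the senescence marker Cdkn2a at 7.41 TPM (5.72 to 9.44) and Cdkn1c at 3.80 TPM. The pocket proteins Rbl1, Rbl2 and Rb1 lay at 24.2, 19.6 and 14.3 TPM.

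Steroid receptors mediate hormone action on the prostate, and 5 of 6 were detected. The glucocorticoid receptor gene Nr3c1 stood at 44.6 TPM (42.9 to 46.4), Esr1 at 5.27 TPM, Nr3c2 at 4.06 TPM and Pgr at 0.656 TPM. Esr2 had 9 reads (0.303 CPM) and was the one below the limit. Their list median, 4.67 TPM, was close to that of all protein-coding genes.

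Hox genes record the position of a tissue along the body axis, with the highest numbered paralogues at its rear, where the prostate forms. Of 39 Hox genes, 31 were detected. Paralogue groups 9 to 13 held 66.3% of the summed Hox TPM with 16 of the genes (14 detected, median 10.9 TPM), groups 5 to 8 held 24.1% with 11 genes (median 6.27 TPM), and groups 1 to 4 held 9.59% with 12 genes (median 2.43 TPM). Hoxa11 led at 62.8 TPM, then Hoxd13 (36.2 TPM), Hoxa10 (33.1 TPM) and Hoxa13 (26.7 TPM), and Hoxb1, Hoxc12 and Hoxd1 had no read.

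**Figure D4:**
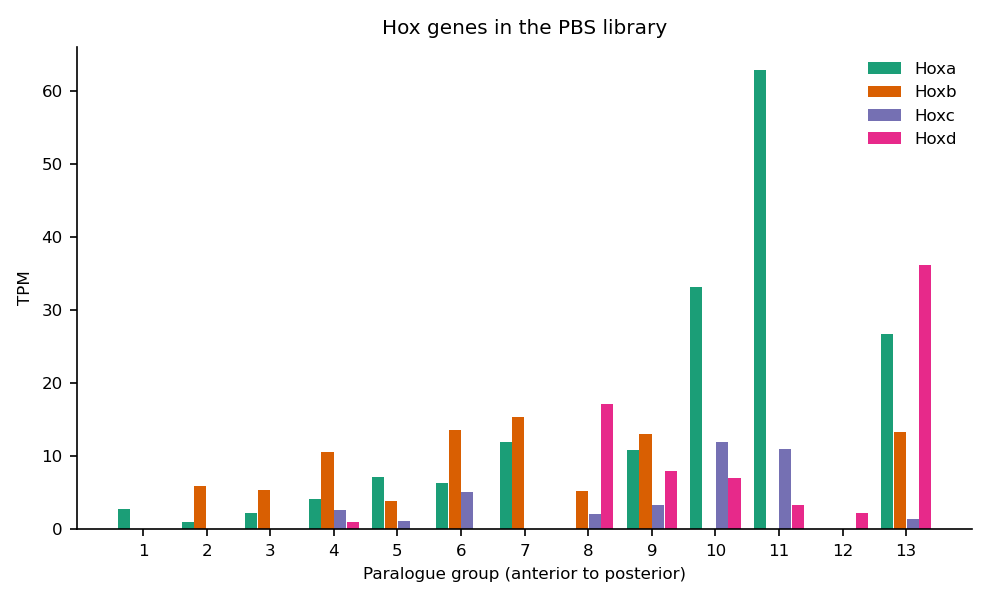
Bars give the TPM of each Hox gene in the PBS library by paralogue group, coloured by cluster. The tallest bars, Hoxa11 at 62.8 TPM and Hoxd13 at 36.2 TPM, lie in the posterior groups 9 to 13, which hold 66.3% of the total.

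Markers were used to check which cell types the library held. In a bulk library, fewer cells of a type and less RNA per cell cannot be told apart, so a summed marker level is not a share of cells. Fibroblast markers were present: 21 of 23 were detected, all 5 defining ones among them (Pdgfra, Dcn, Lum, Dpt and Prrx1, from 15.5 to 756 CPM). They summed to 8384 CPM and 5016 TPM. The proteoglycan gene Dcn stood at 343 TPM, the stem and stromal cell antigen gene Ly6a at 700 TPM and the matrix gene Fbln2 at 858 TPM, against 35.8 TPM for Dpt and 71.2 TPM for Lum. The universal fibroblast markers Pi16 and Dpp4 were near the limit (2.32 and 2.25 CPM), and Clec3b and Gli1 lay below it.

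Epithelial markers were prominent too, so the data go against a label of fibroblasts alone. All 22 luminal epithelium markers and 19 of 20 basal ones were detected. The luminal list summed to 4673 CPM and 8562 TPM and the basal list to 3430 CPM and 3250 TPM, so that the luminal list lay below the fibroblast list in CPM and above it in TPM. The keratins of simple epithelia led, with Krt19 at 1873 TPM (1851 to 1896), Krt8 at 1871 TPM (1849 to 1893) and Krt18 at 1524 TPM. The intervals of Krt19 and Krt8 overlapped, but with the longest transcript these genes stood at 1661 and 1409 TPM. Krt19 and Krt8 were within the first 100 genes by CPM. The tight junction gene Cldn4 had 1092 TPM, the adhesion genes Cdh1 and Epcam had 648 and 519 TPM, and the basal keratins Krt14, Krt17 and Krt5 had 530, 478 and 468 TPM. The basal defining markers Col17a1 and Trp63, the latter the basal lineage factor, stood at 90.0 and 11.0 TPM. Regulators of the mature luminal state were lower, with Foxa1 at 55.4 TPM and the prostate factor Hoxb13 at 13.3 TPM. Of all 53 keratin genes, 16 were detected, 9 reached 100 TPM and 18 had no read.

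**Figure D5:**
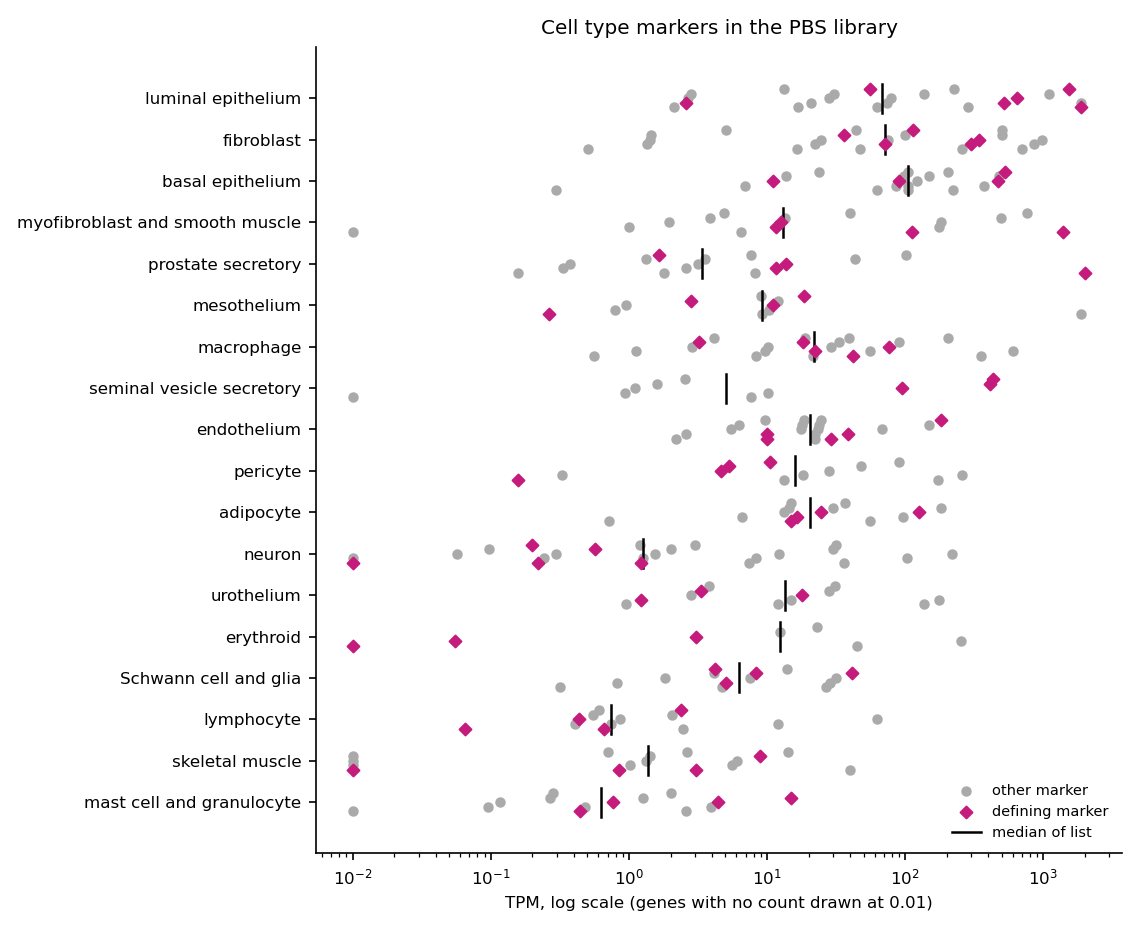
Points give the TPM of each marker of 18 cell types in the PBS library on a log axis, ordered by summed TPM from the top, with defining markers as diamonds and a bar at the list median. Luminal, fibroblast and basal lists lie furthest right, with medians of 68.0, 71.2 and 104 TPM, and lymphocyte, mast cell, neuron and skeletal muscle lists lie near 1 TPM.

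Other cell types left lower levels. All 20 endothelial markers were detected, summing to 683 TPM, with the vascular cadherin gene Cdh5 at 183 TPM, Eng at 148 TPM, Pecam1 at 38.6 TPM, Kdr at 29.2 TPM, Cldn5 at 10.0 TPM and Erg at 9.98 TPM. Of 22 macrophage markers, 20 were detected, summing to 1650 TPM. The lysozyme gene Lyz2 stood at 607 TPM, Ctss at 352 TPM and Cd68 at 204 TPM, while the defining markers Tyrobp, C1qa, Adgre1, Csf1r and Ptprc lay at 76.3, 41.7, 22.4, 18.3 and 3.24 TPM. Adipocyte markers were detected in 13 of 14 cases, with Fabp4 at 181 TPM, Cfd at 126 TPM, Plin1 at 24.4 TPM, Adipoq at 16.3 TPM and Cidec at 14.9 TPM. Of the 14 markers of Schwann cells and glia, 12 were detected (179 TPM in all), with Erbb3 at 41.2 TPM, Sox10 at 8.36 TPM and Cdh19 at 4.21 TPM.

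For pericytes, 10 of 12 markers were detected, but Pdgfrb, which fibroblasts share, led the list, and the defining markers Rgs5, Abcc9 and Kcnj8 lay at 10.4, 5.31 and 4.67 TPM, with Higd1b at 1 read. Mesothelial markers summed to 1948 TPM, of which Krt19, shared with the luminal list, made up 96.2%. The defining ones, Msln, Wt1, Lrrn4 and Muc16, had 18.4, 11.0, 2.80 and 0.264 TPM. Of 23 neuronal markers, 13 were detected, but only Stmn2 (1.71 CPM) among the 5 defining ones, whereas Elavl4 and Snap25 lay below 1 CPM and Syt1 had no read, which allows up to 0.101 CPM by the one-sided limit of 3 reads. The ubiquitin hydrolase gene Uchl1 (218 TPM) and the neuropeptide gene Npy (102 TPM) made up most of that list. Of 13 lymphocyte markers, 3 were detected: the immunoglobulin heavy chain gene Ighm (29.9 CPM), Trbc2 (2.08 CPM) and Lck (1.82 CPM). None of the 4 defining ones (Cd3e, Cd79a, Ms4a1 and Nkg7) reached 1 CPM. Of the defining granulocyte and mast cell markers, S100a8 and Tpsb2 did (2.62 and 1.78 CPM) and S100a9 and Cpa3 did not. Of the erythroid ones Alas2 did (1.85 CPM), Slc4a1 had 2 reads, while Hbb-bs, a beta-globin gene with a near-identical copy, stood at 48.9 CPM. The defining skeletal muscle markers were low, with Myod1 at 4.14 CPM, Pax7 at 1.24 CPM, Myog at 1.14 CPM and Ckm without a read.

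Secretory genes of the male tract were uneven. Of 16 prostate secretory markers, 12 were detected, and Sbp, which encodes the spermine-binding protein of prostatic fluid, stood at 747 CPM and 2018 TPM (1992 to 2045), or 90.9% of the summed TPM of that list. Spink1, a protease inhibitor of secretions, had 102 TPM, and the other defining markers Msmb, Pbsn and Tgm4 had 13.6, 11.7 and 1.64 TPM. Sbp was thus 173 times as high as Pbsn, which encodes the androgen-driven protein probasin. Of 10 seminal vesicle markers, 5 were detected, with Svs5 at 430 TPM, Svs4 at 414 TPM and Svs2 at 94.9 TPM. Of the defining urothelial markers, Upk1a had 18.0 TPM and Upk2 and Upk3a were below 1 CPM. Sprr1a, a cornified envelope gene, led the urothelial list at 176 TPM, followed by Krt7 at 136 TPM, which is shared with the luminal list.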

How the data were processed

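The authors deposited raw counts of reads per gene. The submitters' processing notes list the build GRCm39 and, without a role or order, featureCounts, FastQC, Salmon 1.4.0, Trim Galore 0.6.4 and edgeR 4.2.2. Annotation release, strandedness, multi-mapping reads and RNA selection are not given in the sources used here. The column of the PBS library (29744664 counts) was used alone. Gene IDs were matched without version to GENCODE M21 (GRCm38), used for names, biotypes and exon lengths. It named 52125 of 56748 IDs, and the rest held 1.18% of the counts and had no TPM. CPM used all counts, and TPM used the union of a gene's exons. Genes with symbols in several records took the one with the most reads. Intervals (95%, exact Poisson or binomial, scipy 1.17.1, Python 3.11.15) cover counting error only. They treat reads as independent, which PCR copies are not, so they may be too narrow even for that error. For a count of 0 the limit printed is the one-sided 3 reads, or 0.101 CPM, not the upper bound of the two-sided interval. The steps were tested on simulated data. Alternatives were other detection limits, other numbers of leading genes, TPM in place of counts, the longest transcript in place of the exon union, and shortened marker lists.

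The gene lists (25 classes, 18 marker lists and 20 pathway lists) and the members described were chosen with earlier results of these data known. Named genes are the first 30 by CPM and TPM, the 4 highest of each list, all defining markers, the 3 highest of each class, the 10 highest non-coding genes and all members of 4 short lists; not all are reported here, and others were chosen after their values were seen. The chaperone class joins cytosolic and ER members.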

Additional observations from a re-analysis of the deposited data

How the results depend on the processing

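No paired analysis was possible because the description uses 1 library. Detected protein-coding genes numbered 13702 at 0.5 CPM, 9515 at 10 CPM and 13156 at 1 TPM. The share of the first 100 genes was 18.2% of nuclear protein-coding counts and 23% of TPM. Within the first 50, 200 and 500 genes, the actin class held 25.3%, 19% and 16.2% of the reads, matrix glycoproteins 16.8%, 11.4% and 8.33%, and ribosomal proteins 0%, 5.68% and 7.44%, against 23.6%, 14.4% and 2.71% in the first 100. Among the first 100 by TPM, they held 14.3%, 7.81% and 21.6% with exon-union lengths and 14.8%, 6.53% and 27.1% with the longest transcript. Without mitochondrially encoded mRNAs they held 23.7%, 14.5% and 2.73% of reads. Fibroblast markers summed to 8384 CPM, 5016 TPM, 6753 CPM without the highest member and 1639 CPM over defining markers. The luminal list gave 4673, 8562, 3751 and 2555, and the basal list 3430, 3250, 2780 and 653, in the same order. The fibroblast list thus lay above the luminal list in CPM, and below it in TPM and over defining markers. With the longest transcript, 19 of 20 pathway lists kept their highest member, the exception being the fibrillar collagens (Col1a2 in place of Col1a1), and with at least 10 counts all 20 did. Sums of the marker lists must fall when members are left out and change scale in TPM, so these alternatives do not test their stability. Depth limits genes near 1 CPM, and with 1 library no value shows how cultures vary.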

Other observations

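Further transcripts stood out by level, named after their values were seen. Lipid genes were led by the desaturase gene Scd1 at 1333 CPM and 1082 TPM, and the acute phase gene Hp, which encodes haptoglobin, stood at 360.3 CPM and 891 TPM. B2m, the light chain of MHC class I molecules, stood at 2797 TPM and the antiviral membrane protein gene Ifitm3 at 3089 TPM. Picked for their level, B2m and Ifitm3 do not stand for MHC class I or interferon response genes as a whole. Il1rl1, the receptor for the alarmin IL-33, stood at 277 TPM and its ligand gene Il33 at 26.8 TPM. The mechanosensitive channel gene Piezo1 had 245 TPM, the lysosomal glycoprotein gene Gpnmb 330.1 TPM and the endothelial and epithelial anticoagulant gene Thbd 415 TPM.

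Of the non-coding genes, the nuclear transcript Malat1 stood at 3850 CPM (2190 TPM) and Neat1, the scaffold of paraspeckles, at 690 CPM (132 TPM). The imprinted RNAs H19 and Meg3 had 35.3 and 10.6 TPM, and the annotation classes Cct6a (397 CPM), a chaperonin gene, as a processed transcript, so it is not among the protein-coding genes.

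The 13 mitochondrially encoded mRNAs took 0.403% of the counts and fell in separate ranges. mt-Co1 had 1915 CPM, mt-Cytb 572 CPM, mt-Nd5 532 CPM, mt-Nd1 480 CPM, mt-Nd4 336 CPM, mt-Nd2 151 CPM and mt-Nd6 44.4 CPM, whereas mt-Co2 had 1.34 CPM, mt-Co3 8 reads, mt-Atp6 5 reads, mt-Nd3 2 reads, and mt-Atp8 and mt-Nd4l none. No alignment or counting setting for this genome is on record here, and the part of such settings in these values was not tested.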
